A study of Mus musculus with 19 samples.

Results

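Bone morphogenetic protein (BMP) signalling was followed in the developing mouse ovary through 9 genes: the ligands Bmp2, Bmp4 and Bmp7, the receptors Bmpr1a, Bmpr1b and Bmpr2, and the target genes Id1, Id2 and Id3. They were chosen by symbol, as the probe sets annotated to exactly 1 of these genes, and are 9 of 18193 genes so annotated on the array. They have 22 probe sets, of which 20 passed the filter on low signal, and each gene is represented by the probe set with the highest mean over the 18 ovary arrays, with the others given beside it. Of the 9 genes, 8 changed over the 6 stages, where 62.8% of all tested probe sets changed by the same F test. The clearest pattern lay at postnatal day 2, where Bmp2, Id1, Id2 and Id3 were lower than at gestation day 18, and Bmp4 and Bmpr1b were higher. The Bmpr1b call sat at the threshold, and the calls of Bmp4, Bmpr1b and Id2 were lost when single arrays were left out. At gestation day 16 the arrays of Bmp4 and Id2 overlapped those of postnatal day 2.

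BMPs are secreted dimers of the TGF-beta superfamily that bring together type I receptors (Bmpr1a, Bmpr1b) and type II receptors (Bmpr2) on the cell surface. The active type I receptor phosphorylates Smad1, Smad5 and Smad9, which enter the nucleus with Smad4 and switch on targets, among them the Id genes, whose proteins bind E proteins and keep them from DNA. BMPs are known for the specification of germ cells in the early embryo, before the gonad forms, and for roles in the growth of ovarian follicles.

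The series measured whole female gonads of wild-type CD-1 mice, an outbred strain, on Affymetrix Mouse430_2 arrays at gestation days (gd) 11, 12, 14, 16 and 18 and at postnatal day (pnd) 2, with 3 arrays a stage. No animal was treated or carried an engineered allele. The sample labels mark material up to gd14 as pooled from 3 and the later material as unpooled, while the text of the series describes 1 animal per array, from separate dams save for gd11 samples 18 and 19, which shared one. At gd11 the mesonephros was included in samples 16 and 18 per their labels but is not named for sample 19, and a 19th array held RNA of whole pnd 0.5 animals of both sexes.

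RNA went through 2 rounds of amplification, and the deposited signals are linear intensities scaled to a common trimmed mean of 500 on each array. A signal is comparable for 1 probe set between arrays, not between probe sets. Where log2 changes are given, they are on the scale log2(signal + 31), later stage minus earlier stage, with the SE of a limma fit to the 18 ovary arrays. Calls were made at a Benjamini-Hochberg adjusted p under 0.05, over 26431 probe sets. A change from gd14 to gd16, or from gd11 or gd12 to pnd2, also crosses from arrays labelled as pools to arrays labelled as unpooled, and these cannot be told apart.

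Several arrays stood apart from the others of their stage. Gd11 sample 16 had a summed signal of 30180 over the 8 measured of 10 neuronal and neural crest markers, where samples 18 and 19 had 4413 and 5350, and it was the lowest of its stage for 7 of the 9 genes and the highest for Bmpr1b. Gd12 sample 14 was also the lowest of its stage for 7 of the 9, and the highest for Bmp2. On gd12 sample 13 the neuronal sum was 8537, against 1104 and 1948 on samples 14 and 15. That array was the highest of its stage for Bmpr1a, Bmpr1b and Bmpr2 and the lowest for Bmp2 and Id1. Gd16 sample 7 had a signal of 44.79 for Xist, the RNA of the inactive X chromosome, against 13910 and 16240 on the other gd16 arrays, which goes against its female label, while its signal for the Y-linked gene Eif2s3y was 40.23 against 29.83 and 33.08. It was the lowest of its stage for Bmp2, Bmp7, Id1, Id2 and Id3. For Gapdh, signal at the 3′ end over that at the 5′ end, which tracks RNA quality, ran from 2.987 to 3.28 at gd11 and from 5.068 to 5.408 at pnd2, and its part in the results was not tested. All 7 granulosa markers were above the median signal on each ovary array.

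By the F test of limma for any change over the 6 stages, 8 of the 9 genes were called, where the share over all tested probe sets was 62.8%. Bmpr1a was the exception. The F-test adjusted p was lowest for Id3 (4.99e-06) and Bmp4 (6.28e-06), followed by Bmp2 (1.43e-05) and Id1 (5.81e-05). It was 0.0012 for Id2, 0.0143 for Bmpr1b, 0.0189 for Bmp7 and 0.0207 for Bmpr2. The F-test calls of Bmpr1b, Bmp7 and Bmpr2 were lost when single arrays were left out. For Bmpr1b the adjusted p was 0.0524 without pnd2 sample 1 and 0.0614 without pnd2 sample 2, for Bmp7 0.0964 without pnd2 sample 1, and for Bmpr2 0.0801 without gd14 sample 10, 0.0549 without gd14 sample 11 and 0.0537 without pnd2 sample 3.

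**Figure D1:**
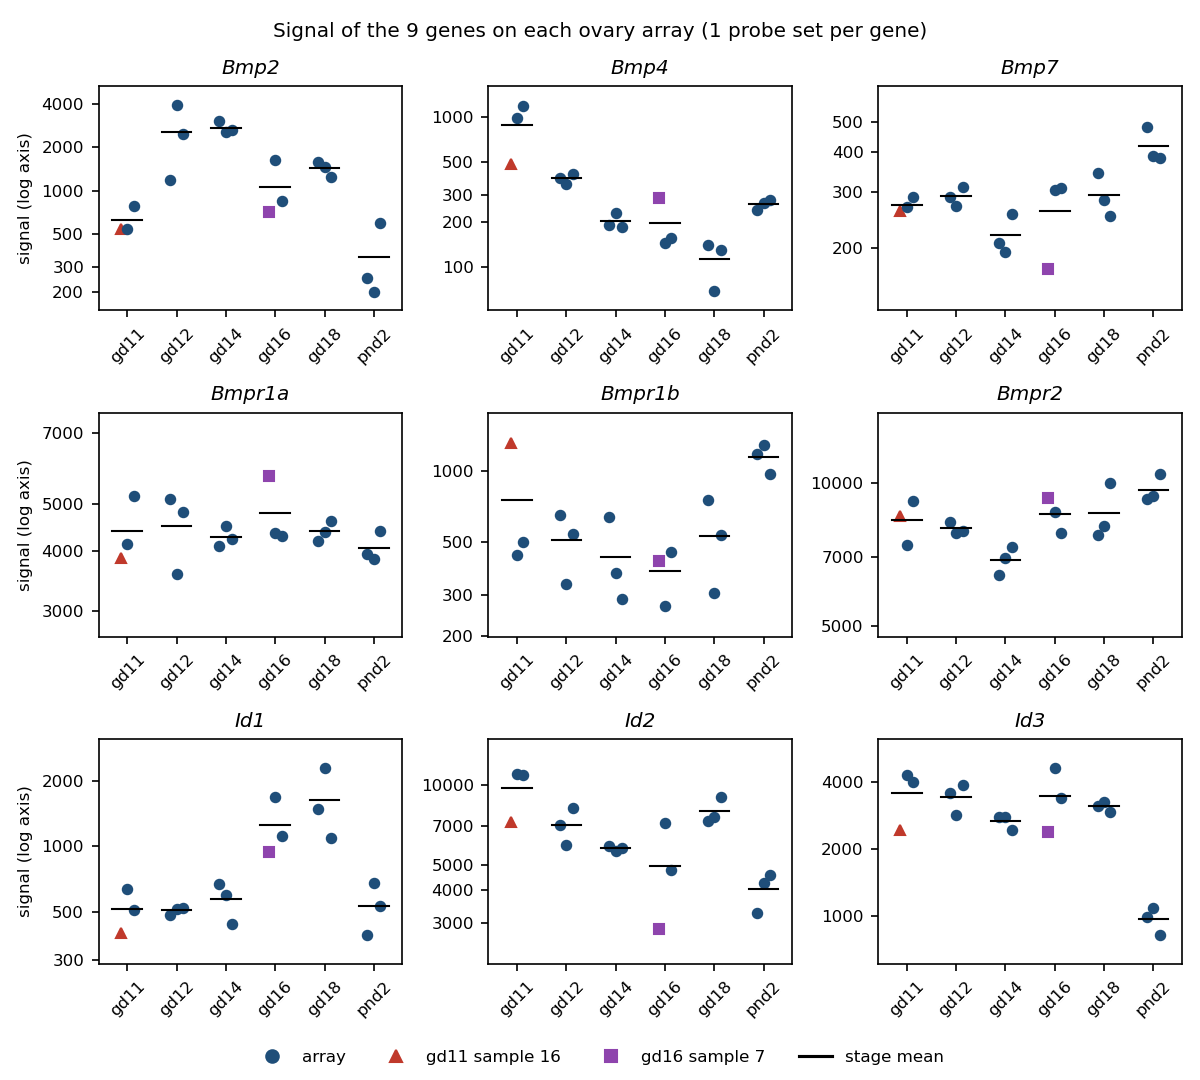
Signal of each gene on each of the 18 ovary arrays (log axis, arbitrary units after scaling) at the 6 stages; points are arrays, short lines are stage means, the triangle is gd11 sample 16 and the square gd16 sample 7. Bmp2 and Id3 were lowest at pnd2, Id1 was highest at gd18, and Bmp4 was highest at gd11.

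Bmp2, a ligand that signals mainly through the type I receptors followed here, was low at the first stage, high at gd12 and gd14 and lowest after birth. Its signals were 546, 548 and 792 at gd11, 1188, 3941 and 2486 at gd12, and 3031, 2577 and 2634 at gd14. They were 712, 1646 and 852 at gd16, 1585, 1459 and 1253 at gd18, and 251, 201 and 599 at pnd2. All gd12 arrays lay above all gd11 arrays, but they differed among themselves more than at gd14, and all pnd2 arrays lay below all gd18 arrays while overlapping those of gd11. Bmp2 rose from gd11 to gd12 by 1.82 ± 0.38 (limma adjusted p 0.0093), did not pass the test from gd12 to gd14 (0.27 ± 0.38, adjusted p 0.691), and was lower at gd16 than at gd14 (-1.42 ± 0.38, adjusted p 0.0136). The change from gd18 to pnd2 was -2.08 ± 0.38 (adjusted p 0.00123), and that from gd12 to pnd2 was -2.74 ± 0.38 (adjusted p 1.69e-05).

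The first rise of Bmp2 was 1.43 without gd12 sample 14, with an adjusted p of 0.0758. The fall at gd16 was -1.19 without gd16 sample 7 (adjusted p 0.0649). The falls to pnd2 from gd18 and from gd12 stayed called with each array left out in turn. From gd11 to pnd2 Bmp2 did not pass (-0.91 ± 0.38, adjusted p 0.0593), but it passed without pnd2 sample 3 (-1.35, adjusted p 0.00776), without gd12 sample 13 (0.0294), without gd12 sample 14 (0.0383) and without gd16 sample 8 (0.0444). It also passed with quantile normalization (adjusted p 0.0438), median scaling (0.0313) and array weights (0.0107). Within gd12 the 3 arrays fell in the same order for Bmp2 and for the summed signal of the 7 granulosa markers. This sum was 15720 on sample 13, 38620 on sample 14 and 23310 on sample 15, against 9724 to 10530 at gd11. Foxl2, Fst, Amhr2, Kitl and Irx3 followed this order. Wnt4 (1563, 2068 and 2373 on samples 13, 14 and 15) and Rspo1 (330.9, 528.5 and 302.2) did not. The order was not particular to granulosa markers. The sum of the 8 measured of 9 mesonephros and nephric duct markers shared it (3561, 5770 and 5401). That of the neuronal markers reversed it (8537, 1104 and 1948). From gd14 to gd16 the granulosa sum rose from a range of 35230 to 37590 to one of 42160 to 46460, while Bmp2 fell. The markers in this sum did not all move alike. Amhr2 rose from a mean of 8436 ± 1549 to 14870 ± 1469, while Fst went from 5815 ± 609.8 to 5571 ± 1349. The part of any of these markers in the changes of Bmp2 was not tested. In whole gonads fewer cells of a type and less RNA per cell cannot be told apart.

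Bmp4, which is known for its role in the specification of primordial germ cells, ran from highest at gd11 to lowest at gd18 and was higher again at pnd2. The signals were 482, 981 and 1191 at gd11, 393, 355 and 416 at gd12, and 189, 228 and 183 at gd14. At the later stages they were 289, 144 and 156 at gd16, 138, 69 and 128 at gd18, and 239, 264 and 276 at pnd2. Each stage up to gd14 lay wholly below the one before, gd16 overlapped gd14, and the pnd2 arrays lay wholly above those of gd18 and below those of gd12. The highest gd11 value was on sample 19, whose label does not name the mesonephros.

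From gd11 to gd12 Bmp4 fell by 1.04 ± 0.28 on the log2 scale (limma adjusted p 0.0432) and from gd12 to gd14 by 0.86 ± 0.28 (adjusted p 0.0431). It rose by 1.06 ± 0.28 from gd18 to pnd2 (adjusted p 0.0172). Over the whole course, from gd11 to pnd2, the change was -1.56 ± 0.28 (adjusted p 0.000196), and this held with each array left out in turn. The early steps lay close to the threshold. That from gd11 to gd12 was lost without any 1 of gd11 samples 18 and 19, gd12 samples 13, 14 and 15, gd14 samples 10, 11 and 12, and pnd2 samples 1 and 2 (adjusted p 0.0507 to 0.169, change -1.09 to -0.79), and it was -1.41 without gd11 sample 16 (adjusted p 0.00627). The step from gd12 to gd14 was lost without any 1 of the gd12 or gd14 arrays or of pnd2 samples 1 and 2 (adjusted p 0.0514 to 0.125). The rise from gd18 to pnd2 was lost without gd18 sample 5 (0.82, adjusted p 0.0952).

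Bmp7, a ligand best known for its part in kidney development, varied little before birth. The signals were 262, 269 and 289 at gd11, 290, 271 and 310 at gd12, and 206, 193 and 256 at gd14. They were 171, 305 and 309 at gd16, 345, 283 and 251 at gd18, and 481, 390 and 383 at pnd2. The pnd2 arrays lay above all others, by a small margin over the highest at gd18. The change from gd11 to pnd2 was 0.56 ± 0.19 (limma adjusted p 0.0278). It did not pass without gd11 sample 16 (adjusted p 0.0715), gd11 sample 18 (0.0657) or pnd2 sample 1 (0.113), nor with median scaling of the arrays (0.42, adjusted p 0.112). From gd18 to pnd2 it was 0.47 ± 0.19 (adjusted p 0.119). A second probe set of Bmp7 did not pass the F test (adjusted p 0.392), and the third was below the filter.

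**Figure D2:**
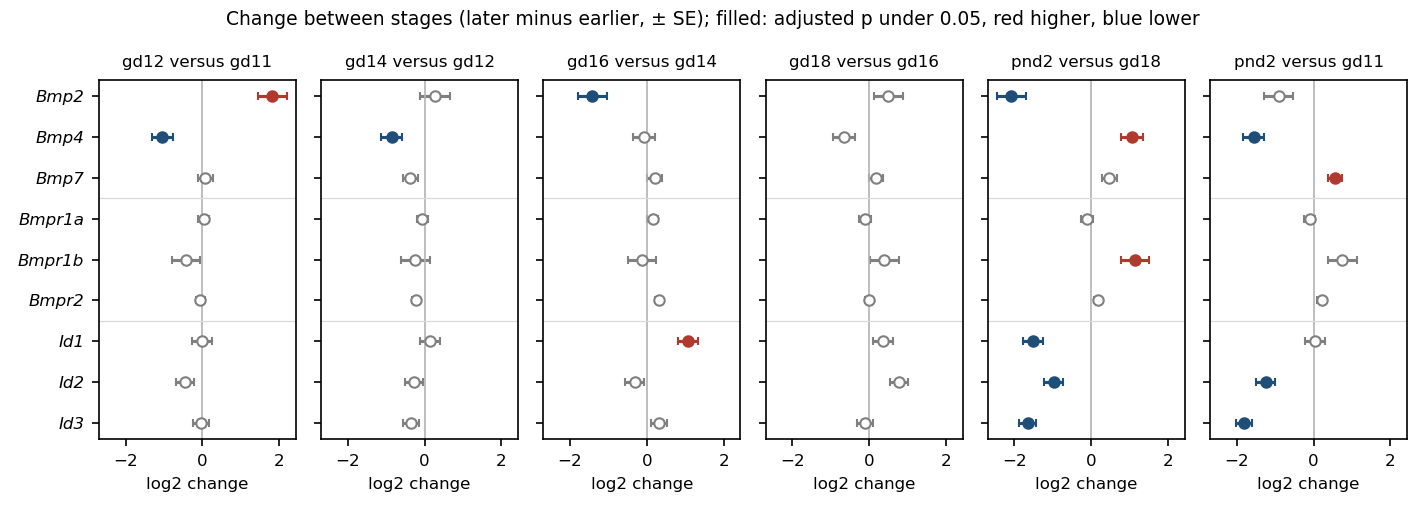
Log2 change ± SE of the 9 genes between consecutive stages and from gd11 to pnd2 (horizontal axis, later minus earlier); filled points have an adjusted p under 0.05, red for higher and blue for lower. Of the 5 steps between consecutive stages, the last, from gd18 to pnd2, has the most filled points, 6 of 9.

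Among the receptors, the type I receptor Bmpr1b was the one that passed a comparison between 2 stages with its main probe set. Its signals were 1306, 443 and 503 at gd11, 654, 333 and 540 at gd12, and 637, 371 and 287 at gd14. They were 415, 268 and 455 at gd16, 752, 304 and 535 at gd18, and 1178, 1292 and 972 at pnd2. The pnd2 arrays lay above all arrays of gd12 to gd18, and gd11 sample 16, the array with the highest neuronal signal, lay above them all. Bmpr1b was higher at pnd2 than at gd18 by 1.14 ± 0.37 (limma adjusted p 0.0492) and than at gd12 by 1.16 ± 0.37 (adjusted p 0.0194).

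The Bmpr1b change from gd18 sat at the threshold and was lost without any 1 of 11 arrays (gd11 sample 19, gd12 samples 13 and 15, gd14 sample 11, gd16 samples 7 and 9, gd18 samples 5 and 6, and pnd2 samples 1, 2 and 3), with an adjusted p of 0.0507 to 0.212 and a change of 0.81 to 1.26. It was also lost with a pseudocount of 8 (adjusted p 0.0533), no filter (0.0768) or no mean-variance trend (0.0692). That from gd12 was lost without gd12 sample 14 (adjusted p 0.0956), pnd2 sample 1 (0.0526) or pnd2 sample 2 (0.0627). The other probe sets of Bmpr1b gave the same direction with smaller p values. Both had stage means below the median signal of 116.05 at each stage before birth, so they passed the filter only through pnd2. The size of their changes depends on the pseudocount, and their calls are not separate support for the main probe set. Probe set 1422872_at went from 75.37 ± 24.11 at gd18 to 190.3 ± 33.37 at pnd2 (1.07 ± 0.27, adjusted p 0.0124), and 1443720_s_at from 30.75 ± 17.65 to 131.1 ± 28.53 (1.41 ± 0.33, adjusted p 0.00755). Both were also called from gd11 to pnd2 (0.90 ± 0.27, adjusted p 0.0112, and 1.17 ± 0.33, adjusted p 0.0076). The main probe set was not called from gd11 (0.75 ± 0.37, adjusted p 0.115) unless gd11 sample 16 was left out (1.22, adjusted p 0.00938).

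Bmpr1a, the other type I receptor, kept a narrow range on its main probe set, with a lowest array of 3586 and a highest of 5721, and its stage means spanned 1.18 times. The change from gd11 to pnd2 was -0.10, with a 95% confidence interval of -0.41 to 0.20 in the limma fit, and the F test gave an adjusted p of 0.771. No neighbouring stages in the order of its means were free of overlap. Not all other probe sets of the same gene shared this pattern. Of the 5 tested, the main one among them, 3 passed the F test, namely 1425491_at (adjusted p 0.00123), 1425493_at (0.0257) and 1425494_s_at (0.00629). The F test did not call 1451729_at (adjusted p 0.0982). Probe set 1425491_at went from 586 ± 54.44 at gd12 to 769.1 ± 49.52 at gd14, 557.6 ± 43.86 at gd16 and 430.1 ± 28.46 at pnd2. It was lower at gd16 than at gd14 (-0.44 ± 0.14, adjusted p 0.03), where the main probe set gave 0.15 ± 0.15. With the mean of all probe sets in place of the main one, Bmpr1a passed the F test (adjusted p 0.0221).

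Bmpr2, the type II receptor for BMPs, passed the F test but no comparison between 2 stages. Its lowest stage was gd14, with signals of 6399, 6967 and 7349, and its highest pnd2, with 9254, 9413 and 10442. The gd14 arrays lay below all others, and the stage means spanned 1.41 times. The change from gd14 to gd16 was 0.32 ± 0.11 (limma adjusted p 0.0537). It passed with quantile normalization (0.38, adjusted p 0.0219) and when gd11 sample 18 (0.0497), gd16 sample 9 (0.0406) or gd18 sample 6 (0.0367) was left out. From gd12 to pnd2 it was 0.27 ± 0.11 (adjusted p 0.0656), and it passed without gd18 sample 6 (0.0451), with quantile normalization (0.37, adjusted p 0.0126) and on the mean of all probe sets (0.50, adjusted p 0.0119). Of its other probe sets, 1419616_at was higher at pnd2 than at gd12 (0.89 ± 0.34, adjusted p 0.0482) and 1441652_at passed none of the 8 tests.

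**Figure D3:**
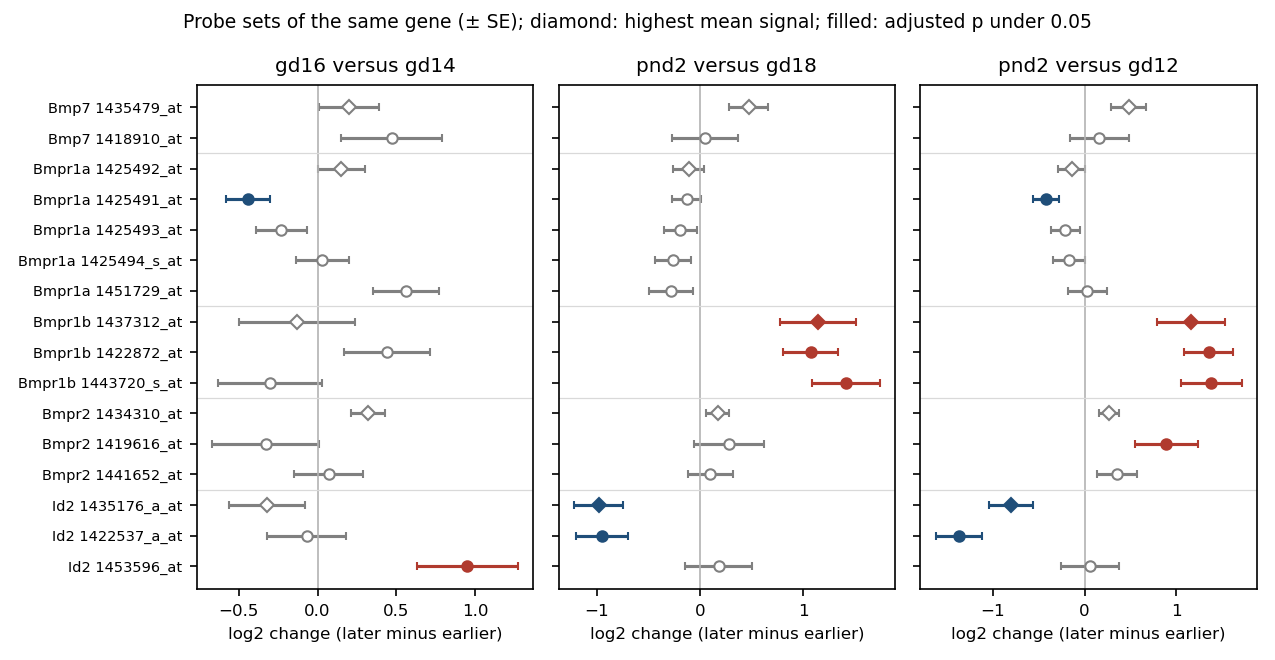
Log2 change ± SE for each tested probe set of the 5 genes with more than 1, in 3 comparisons; diamonds mark the probe set with the highest mean signal and filled symbols an adjusted p under 0.05. All 3 Bmpr1b probe sets were higher at pnd2 than at gd18 and at gd12. From gd14 to gd16 the probe sets of Bmpr1a, of Bmpr1b, of Bmpr2 and of Id2 differed in direction.

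The Id genes encode helix-loop-helix proteins without a DNA-binding region. All 3 were lower at pnd2 than at gd18, and they differed from each other before birth. No promoter sequence was matched for Id1. The bases before the transcription start of Id2 and Id3 are shown here as RefSeq gives them in build GRCm38.p6. They are in lower case, with capitals for matches to the SMAD-binding motifs that were searched. These are GGCGCC, which reads the same on both strands, and GTCTG or its reverse complement CAGAC; the motifs do not overlap each other. Each sequence is the 250 bases before the start, 5′ to 3′ on the strand of the gene.
Id2 (chr12:25096093-25096342, minus strand): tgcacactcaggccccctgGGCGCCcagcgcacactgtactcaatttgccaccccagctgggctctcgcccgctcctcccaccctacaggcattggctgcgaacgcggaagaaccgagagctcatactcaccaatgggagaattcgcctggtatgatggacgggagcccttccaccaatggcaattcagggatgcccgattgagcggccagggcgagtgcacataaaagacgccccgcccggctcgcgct
Id3 (chr4:136143572-136143821, plus strand): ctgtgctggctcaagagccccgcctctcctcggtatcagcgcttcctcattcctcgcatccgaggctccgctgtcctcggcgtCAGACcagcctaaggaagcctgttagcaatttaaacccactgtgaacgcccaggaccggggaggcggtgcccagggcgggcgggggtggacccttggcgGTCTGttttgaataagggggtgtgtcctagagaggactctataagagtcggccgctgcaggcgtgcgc

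The Id2 window holds GGCGCC once, beginning 231 bases before the start, and no GTCTG. The Id3 window holds the shorter motif at 167 and at 68 bases before the start, and no GGCGCC. Of 32851 promoters of the same length, 9.59% hold GGCGCC and 42.2% hold GTCTG on either strand, so the shorter motif is common. Promoters were matched for 6 of the 9 genes, and not for Bmp2, Bmp7 and Id1. Those of Bmpr1a and Bmpr2 hold GGCGCC once each, at 198 and 105 bases before the start, that of Bmp4 holds neither motif, and 2 of the 3 starts of Bmpr1b hold the shorter motif, 128 and 245 bases before them. A match is a run of letters in this window and not a measured site. Other SMAD-binding sequences were not searched.

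Id3 had the smallest F-test p of the 9 genes, and its fall lay between gd18 and pnd2, with no stage measured in between. The signals were 2445, 4288 and 4016 at gd11, 3589, 2845 and 3891 at gd12, and 2796, 2782 and 2433 at gd14. They were 2380, 4619 and 3396 at gd16, 3142, 3271 and 2925 at gd18, and 992, 1090 and 828 at pnd2. Every pnd2 array lay below every earlier array by more than the pnd2 arrays differed among themselves. Id3 fell by 1.66 ± 0.21 on the log2 scale from gd18 (limma adjusted p 5.5e-05), by 1.82 ± 0.21 from gd11 (adjusted p 2.06e-06) and by 1.79 ± 0.21 from gd12 (adjusted p 3.62e-06). These 3 calls held under each setting tried and with each array left out. No step between consecutive stages before birth passed the test.

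Id2, which is also a regulator of lymphoid cells and mammary gland growth, was highest at gd11 and lowest at pnd2. Its signals were 7254, 11020 and 10911 at gd11, 7036, 5921 and 8157 at gd12, and 5882, 5643 and 5800 at gd14. They were 2855, 7189 and 4763 at gd16, 7291, 7545 and 8993 at gd18, and 3292, 4257 and 4556 at pnd2. The lowest ovary value was that of gd16 sample 7, and the pnd2 arrays lay below those of each stage but gd16. Id2 changed by -0.98 ± 0.24 from gd18 to pnd2 (limma adjusted p 0.00988), by -1.25 ± 0.24 from gd11 (0.000314) and by -0.80 ± 0.24 from gd12 (0.0125).

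Without pnd2 sample 1 the Id2 change from gd18 was -0.84 (adjusted p 0.0621), and the change from gd12 was lost without gd12 sample 15 (adjusted p 0.0587) or pnd2 sample 1 (0.0656). From gd16 to gd18 Id2 changed by 0.78 ± 0.24 (limma adjusted p 0.0517), which passed without gd16 sample 8 (1.09, adjusted p 0.00471) or without gd11 sample 16 (0.0385) and was 0.43 without gd16 sample 7 (adjusted p 0.239). A second probe set, 1422537_a_at, was also lower at pnd2, at 163 ± 58.74 against 331.2 ± 19.01 at gd18 (-0.95 ± 0.25, adjusted p 0.0154) and 521.4 ± 146.7 at gd11 (-1.52 ± 0.25, adjusted p 6.79e-05). The third, 1453596_at, with stage means of at most 157.6, was not lower at pnd2 than at gd18 (0.18 ± 0.32, adjusted p 0.769) and was higher at gd16 than at gd14 (0.95 ± 0.32, adjusted p 0.044).

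Id1, a direct BMP target in many cell types, was the gene whose high stages were gd16 and gd18. The signals were 398, 636 and 509 at gd11, 482, 518 and 522 at gd12, and 671, 598 and 442 at gd14. They were 939, 1682 and 1118 at gd16, 1479, 2291 and 1089 at gd18, and 391, 679 and 531 at pnd2. All 6 arrays of gd16 and gd18 lay above all 12 arrays of the other stages, which overlapped each other. Id1 rose by 1.06 ± 0.26 from gd14 to gd16 (limma adjusted p 0.00891) and changed by -1.51 ± 0.26 from gd18 to pnd2 (adjusted p 0.000811), which left it at 0.04 ± 0.26 relative to gd11, with a 95% confidence interval of -0.51 to 0.59. The rise was 0.90 without gd14 sample 12 (adjusted p 0.0539), 0.83 without gd16 sample 8 (0.052) and 1.24 without gd16 sample 7 (0.00878). The fall after gd18 held with each array left out.

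By comparison, 6 of the 9 genes were called from gd18 to pnd2, 4 lower (Bmp2, Id1, Id2, Id3) and 2 higher (Bmp4, Bmpr1b). Over all tested probe sets 13% were called in that comparison, 6.39% as lower and 6.60% as higher. With 1 array left out, 4 to 6 of the genes were called. The median log2 change of the 9 genes was -0.11, against -0.06 over all tested probe sets. On the same arrays the summed signal of 6 oocyte markers went from 825.5 to 1369 at gd18 to 9350 to 19900 at pnd2, and that of the 5 measured of 6 erythroid markers from 862.1 to 4049 down to 149.6 to 205. The sums of the granulosa, germ cell, endothelial and macrophage markers overlapped between these stages. The part of the oocyte and erythroid markers in the changes was not tested.

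The steps before birth called fewer of the genes. From gd11 to gd12, 2 were called, Bmp2 higher and Bmp4 lower, where 4.12% of all tested probe sets were called. From gd12 to gd14 Bmp4 alone was called, as lower (16.5% of all tested, 7.05% as lower). Over this step the summed signal of 7 germ cell markers rose from a range of 3410 to 11000 to one of 30070 to 37500. Those of the neuronal, endothelial and erythroid markers were lower at gd14 without overlap, and the part of any of these was not tested. From gd14 to gd16, 2 were called, Id1 higher and Bmp2 lower (18.8% of all tested), a step in which the summed signal of 7 germ cell markers fell from a range of 30070 to 37500 to one of 11800 to 15200 and that of the erythroid markers from 33440 to 36830 to 3768 to 8008, and the part of either was not tested. From gd16 to gd18 none was called by limma (7.58% of all tested), while 2, Bmp4 and Id2, had an unadjusted p under 0.05, as had 6026 of all tested probe sets.

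From gd11 to pnd2, 4 of the 9 genes were called, Bmp7 higher and Bmp4, Id2 and Id3 lower, where 42.0% of all tested probe sets were called. From gd12 to pnd2 it was 4 again, Bmpr1b higher and Bmp2, Id2 and Id3 lower, where 36.8% were called. These shares of the genes are near those of all probe sets. Comparisons that end at pnd2 share the pnd2 arrays, so they do not count as separate evidence. Between gd11 and pnd2 the sums of the 8 measured of 9 mesonephros and nephric duct markers (3448 to 6536 at gd11, 1597 to 2551 at pnd2), of the neuronal markers and of the erythroid markers were lower at pnd2 without overlap, and those of the germ cell and granulosa markers higher. Without gd11 samples 16 and 18, which leaves 1 gd11 array assumed to vary like the other stages, the change to pnd2 was -2.07 for Bmp4 (adjusted p 0.000227), -1.44 for Id2 (0.00339) and -2.02 for Id3 (3.94e-05), while Bmp7 was no longer called (0.48, adjusted p 0.248).

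**Figure D4:**
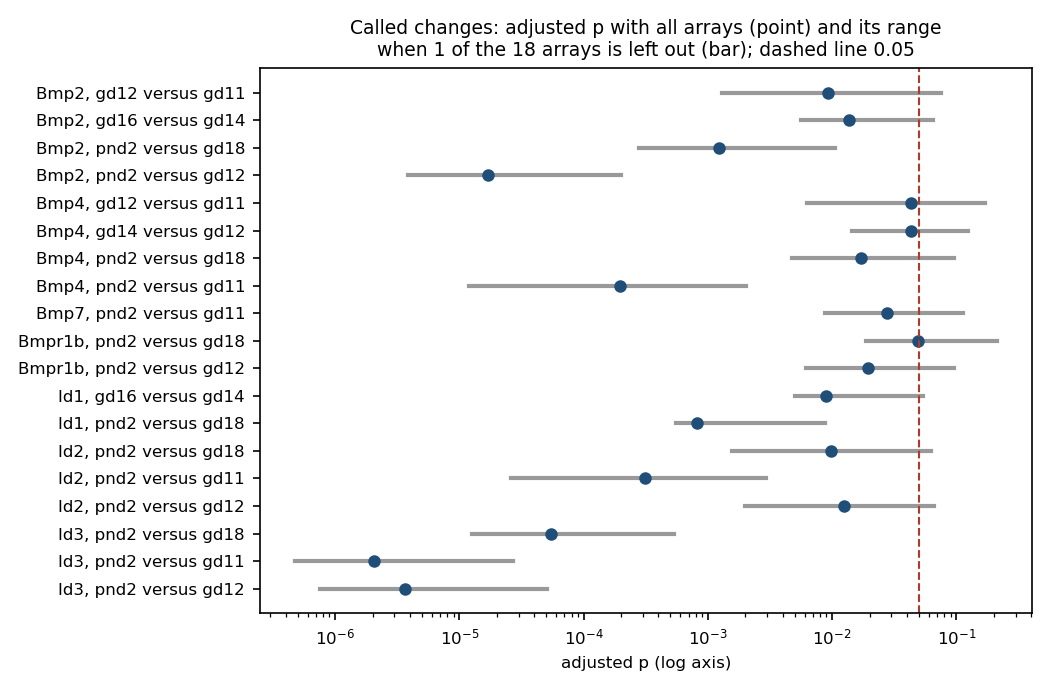
Adjusted p (log axis) of each called change between 2 stages with all 18 ovary arrays (points) and its range when each array is left out in turn (bars); the dashed line is 0.05. The Id3 calls, the fall of Id1 after gd18 and the falls of Bmp2 to pnd2 stay left of the line over their whole range.

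The rest of the pathway was taken as 60 further genes by role, of which 56 had a probe set and 40 passed the filter; the rest were not analysed here. By the F test 31 of the 40 changed, against 62.8% of all tested probe sets. From gd18 to pnd2, 2 of the 40 were called higher and 4 lower, where 13% of all tested probe sets were called, so this count is near the background. The antagonist Sostdc1, which binds BMPs outside the cell, fell from 471.3 ± 183.5 to 146.4 ± 39.45 (-1.45 ± 0.26, limma adjusted p 0.00096), and Hey1, a transcription factor induced by Notch and BMP signals, rose from 539.2 ± 55.93 to 1137 ± 415.4 (0.98 ± 0.20, adjusted p 0.00266). Bmp6, a ligand made by oocytes, rose as well (0.91 ± 0.25, adjusted p 0.0194; lost without gd18 sample 5, pnd2 sample 1 or pnd2 sample 2, adjusted p up to 0.0939). Skil (-0.58 ± 0.13, adjusted p 0.00813) and Tob1 (-0.90 ± 0.26, adjusted p 0.0296), which restrain Smad activity in the cell, were lower, with both calls lost on the mean of all their probe sets and without gd18 sample 6, and that of Tob1 also without gd18 sample 5, pnd2 sample 1 or pnd2 sample 2 (adjusted p up to 0.105 for Skil and 0.116 for Tob1). Id4, the fourth Id gene, was at -1.05 ± 0.34 (adjusted p 0.0499), a call kept in 10 of 30 alternatives (adjusted p up to 0.172).

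Of the other ligands, Bmp5 and Bmp6 went in opposite directions over the whole course. Bmp5 went from 3715 ± 1654 at gd11 and 2390 ± 782.7 at gd12 to 354.5 ± 171 at pnd2 (-3.31 ± 0.38 from gd11, limma adjusted p 1.3e-06). Bmp6 went from 83.34 ± 18.03 to 564.1 ± 71.83 (2.38 ± 0.25, adjusted p 4.16e-07). Both calls held in all alternatives. The third tested ligand, Gdf2, did not pass the F test, and Bmp8a, Bmp8b, Bmp10, Gdf5 and Amh were below the filter.

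Of 8 other receptors and co-receptors tested, 6 were called from gd11 to pnd2, 2 higher and 4 lower, where 22.4% of all tested probe sets were called higher and 19.5% lower. Amhr2, the receptor for anti-Müllerian hormone and itself one of the granulosa markers, rose from 2069 ± 450.8 at gd11 to 6815 ± 2825 at gd12 (1.63 ± 0.24, limma adjusted p 0.000893) and was at 11190 ± 2371 at pnd2 (2.42 ± 0.24 from gd11, adjusted p 3.21e-07). The co-receptor Tgfbr3 was higher at pnd2 (0.98 ± 0.24, adjusted p 0.00274). The activin type II receptor Acvr2b, which also binds BMPs, fell from 551.1 ± 104.5 to 189.6 ± 39.56 (-1.40 ± 0.20, adjusted p 2.09e-05). The Tgfbr3 call was lost without gd11 samples 16 and 18 together (adjusted p 0.0643).

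The signal transducers changed by less. Smad5 was lower at gd18 than at gd16 (-0.64 ± 0.13, limma adjusted p 0.00495) and at pnd2 than at gd12 (-0.57 ± 0.13, adjusted p 0.00186), Smad1 was lower at gd14 than at gd12 (-0.48 ± 0.15, adjusted p 0.0397), and Smad4 passed the F test only. The Smad1 call was lost in 8 of 30 alternatives, those without gd12 sample 13 or 15 or any 1 of the gd14 arrays among them (adjusted p up to 0.191), and that of Smad5 from gd16 to gd18 on the mean of all probe sets. Of the 8 inhibitors in the cell or at the membrane, 4 were lower and 1 higher at pnd2 than at gd11 (19.5% and 22.4% of all tested probe sets). Smad6, the inhibitory Smad that BMP signalling itself induces, fell from 613.8 ± 326.7 to 119.5 ± 17.94 (-1.93 ± 0.33, adjusted p 0.000103), and Skil fell from 3335 ± 239.9 to 1107 ± 139.5 (-1.57 ± 0.13, adjusted p 4.01e-08). Ski, which is related to Skil, was higher (0.96 ± 0.24, adjusted p 0.0034), a call lost without gd11 samples 16 and 18. Bambi, a decoy receptor, was lower at pnd2 than at gd12 (-1.10 ± 0.19, adjusted p 0.000188).

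Among 9 secreted antagonists and modulators tested, the activin and BMP binder Fst, also a granulosa marker, rose from 710.7 ± 82.04 at gd11 to 3633 ± 2668 at gd12 (2.07 ± 0.31, limma adjusted p 0.000872; lost without gd11 samples 16 and 18, adjusted p 0.0687). Bmper, a secreted BMP binder, fell from 1707 ± 577.9 at gd12 to 589.4 ± 43.96 at gd14 (-1.44 ± 0.35, adjusted p 0.00812; 0.0549 without gd12 sample 13). Sostdc1 was low at gd14, at 88.3 ± 14.67 against 244.7 ± 26.27 at gd12 (-1.21 ± 0.26, adjusted p 0.00303), and higher again at gd16 (1.02 ± 0.26, adjusted p 0.0103; 0.0516 without gd16 sample 8). Tll1, a protease related to Bmp1 that cleaves the antagonist chordin, fell from 234 ± 45.96 at gd11 to 16.18 ± 13.86 at pnd2 (-2.52 ± 0.42, adjusted p 0.0001). The pnd2 signal of Tll1 lay below 31, the 25th percentile of all values, so the size of its change depends on the pseudocount and ran from -3.49 to -1.40 over the alternatives. The antagonists Nog, Grem1, Chrdl1, Sost, Cer1 and Dand5 were below the filter.

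All 6 tested genes of the other targets were lower at pnd2 than at gd11, where 19.5% of all tested probe sets were called lower, with a median of -1.37 against 0.01 over all tested probe sets. The sums of the mesonephros, neuronal, endothelial and erythroid markers were also lower at pnd2 than at gd11 without overlap, and their part in the fall of these genes was not tested. The transcription factor Gata2 fell from 1192 ± 184.9 to 396.1 ± 124.2 (-1.55 ± 0.26, limma adjusted p 9.48e-05), Gata3, which is also one of the mesonephros markers, from 186.6 ± 86.76 to 21.44 ± 16.8 (-2.02 ± 0.38, adjusted p 0.000294; -2.77 to -1.11 over the alternatives), and the homeobox gene Msx2 from 175.3 ± 38.06 to 47.13 ± 22.46 (-1.43 ± 0.33, adjusted p 0.00161; 0.0528 without gd11 samples 16 and 18). The pnd2 signals of Gata3 and Msx2 lay below the median signal, so the size of their changes depends on the pseudocount. Gata3 had a stage mean above that median only at gd11, so it passed the filter only through gd11. Its fall and its place among the 6 are thus partly set by the filter and are not separate support. From gd12 to pnd2, 4 of the 6 were called, all lower, where 36.8% of all tested probe sets were called and 18.5% as lower, among them Msx1, a homeobox factor of the same family (-1.11 ± 0.29, adjusted p 0.00544). From gd18 to pnd2 the median of the 6 was -0.56, with 1 called lower (Id4) and 1 higher (Hey1). Over all 40 genes, 19 were lower and 6 higher from gd11 to pnd2, against 19.5% lower and 22.4% higher of all tested probe sets, with a median of -0.40. Gata3 and Tll1, both among the 19, passed the filter only through gd11. Of the E proteins, the partners of Id proteins, Tcf4 was lower at gd14 than at gd12 (-0.45 ± 0.15, adjusted p 0.0437, kept in 16 of 30 alternatives) and higher at gd18 than at gd16 (0.63 ± 0.15, adjusted p 0.013; lost without gd18 sample 4, with the fit to the compared arrays only and on the mean of all probe sets), and none of the 3 was called from gd18 to pnd2.

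**Figure D5:**
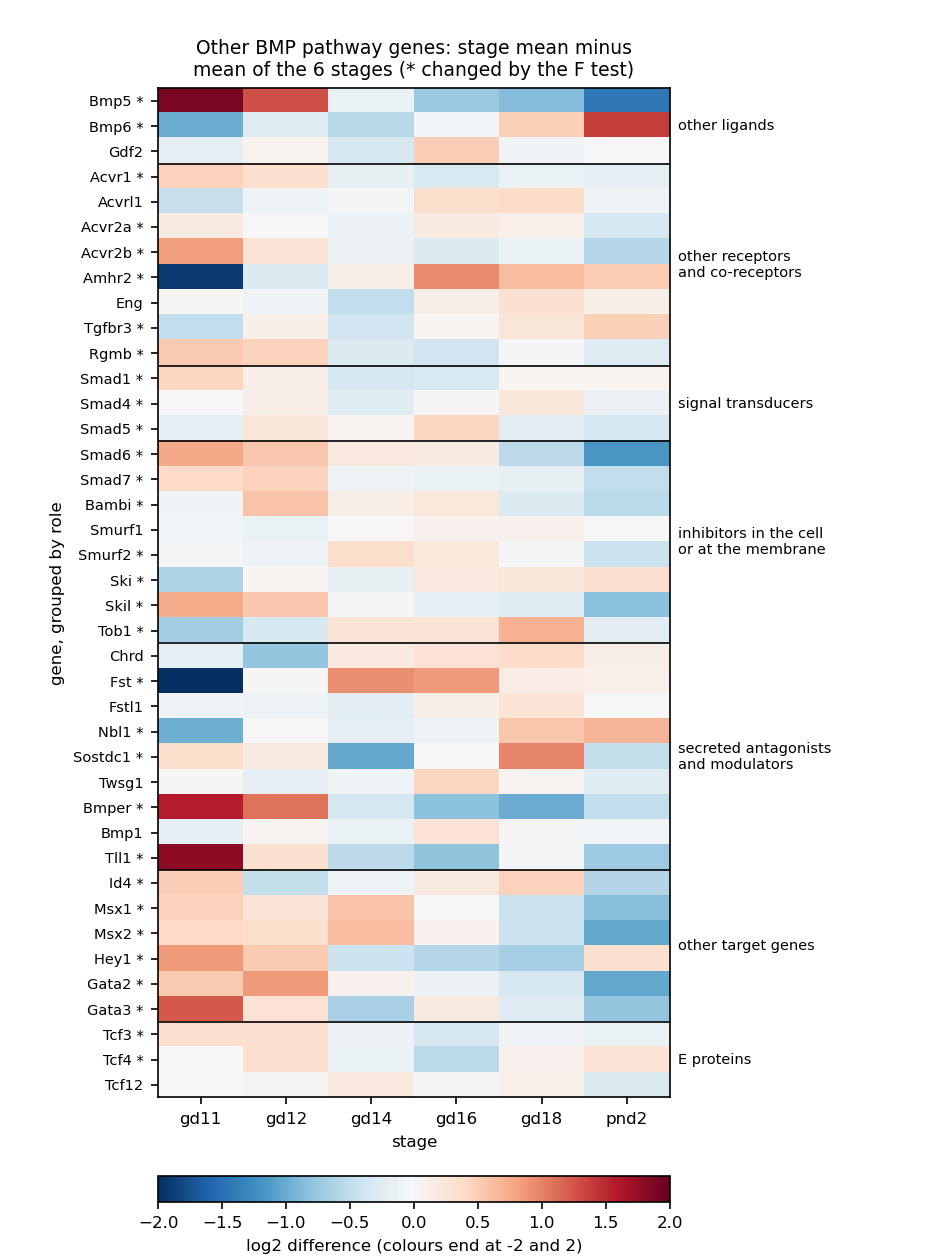
Stage means of log2 signal of the 40 tested further pathway genes, each minus its own mean over the 6 stages (red above, blue below, colours end at -2 and 2), in rows by role and columns by stage; an asterisk marks the 31 genes that changed by the F test. Bmp5 ran from its highest mean at gd11 to its lowest at pnd2, Bmp6 the other way, and the 6 other target genes were all lower at pnd2 than at gd11. Gata3, among these 6, passed the filter only through gd11.

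The genes whose log2 signals over the 18 ovary arrays were most like those of a member were sought among 12040 genes. These correlations run across arrays that fall into 6 stages and are descriptions. For Id3 the nearest was Igf2, the fetal insulin-like growth factor (r = 0.931), and for Id2 it was the nuclear receptor Nr4a2 (0.906). Bmp2 was closest to Pank1, an enzyme of coenzyme A synthesis (0.925), followed by Klhl23 (0.886). Bmp4 was closest to Rbms1 and Eya4 (both 0.933), Id1 to Med9os (0.896) and Mlh3 (0.895), and Bmpr1b to Prc1 (0.85). The nearest gene of Bmpr2 was Dpep1 (0.88), that of Bmp7 Aig1 (0.87) and that of Bmpr1a Mnat1 (0.739), the lowest of the 9. No member was among the nearest 3 genes of another. Between members the highest value was 0.69 for Id2 and Id3, and the lowest was -0.676 for Bmp2 and Bmpr1b.

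The array of whole pnd 0.5 animals had no replicate and was not tested. Its signals for the 9 genes all lay outside the range of the 3 pnd2 ovary arrays. Bmp2 was at 892 on it, against 201.3 to 598.9 in the pnd2 ovary, and Id3 at 1292 against 827.8 to 1090, both higher in the whole animal. The other 7 were lower there, among them Bmpr1b at 541.1 against 972.2 to 1292 and Id2 at 2458 against 3292 to 4556.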

How the data were processed

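The authors deposited linear signal intensities with a 2% trimmed mean of 500 on each array, from GCOS according to the submitters' processing notes; its version and background handling were not given in the sources used here. From the 45101 probe sets, 64 controls were left out. Values were taken as log2(signal + 31), 31 being the 25th percentile, and probe sets entered the tests when the mean of at least 1 stage exceeded 116.05, the median. Stages were compared with limma 3.58.1 (R 4.3.3), 1 term per stage over 18 ovary arrays with a mean-variance trend (12 residual degrees of freedom), two-sided, adjusted over 26431 probe sets. The p values measure the spread between arrays labelled as samples of a stage, pooled and unpooled alike, and the number of arrays limits precision. The labels give no batch. On arrays simulated for gd14 against gd12 (26431 probe sets) the test recovered 57 of 100 changes of log2 size 1 and 95 of 100 of size 2, with 12 false calls. Only these changes were simulated, with noise drawn independently, where 16.5% of probe sets were called in the real comparison. The recovery rates thus do not give the sensitivity of the tests reported here.

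The genes and lists were chosen with earlier results of these data known. Of the pathway lists, those named are up to 3 called genes per role and comparison with the largest change and no overlap of arrays, with Gdf2, Smad4 and genes below the filter named beside them to complete a count. Marker sums add the highest-mean probe set of each listed gene. Promoters are RefSeq sequences of GRCm38.p6. Alternatives were 12 settings, each array left out in turn and each other probe set.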

Additional observations from a re-analysis of the deposited data

How the results depend on the processing

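Of 19 called changes of the 9 genes between 2 stages, 8 were kept under each setting that could be run and with each array left out; of these, the fall of Id2 from gd11 to pnd2 was not called on its probe set 1453596_at (-0.44, adjusted p 0.291). From gd11 to gd12 the count of called genes went from 2 to 1 with a pseudocount of 8, no filter, no mean-variance trend, or gd11 samples 18 and 19 averaged, and to 0 with a fit to only the arrays compared or without gd11 samples 16 and 18. From gd12 to gd14 it went from 1 to 0 with no filter or no trend, and from gd16 to gd18 from 0 to 1 (Id2) with median scaling or a filter at the 75th percentile. With 1 array left out the counts ranged from 0 to 2 (gd12 versus gd11), 0 to 1 (gd14 versus gd12), 1 to 3 (gd16 versus gd14), 0 to 1 (gd18 versus gd16), 4 to 6 (pnd2 versus gd18), 3 to 5 (pnd2 versus gd11), 2 to 5 (pnd2 versus gd12) and 6 to 8 (F test). In the alternatives run, a called direction reversed only between probe sets of a gene: Bmpr1a 1425491_at gave -0.44 from gd14 to gd16, and Id2 1453596_at gave 0.95 from gd14 to gd16, 0.18 from gd18 to pnd2 and 0.06 from gd12 to pnd2; the cause was not tested. Median scaling moved the median of all probe sets by -0.11 (gd12 versus gd11), -0.18 (gd16 versus gd14) and -0.15 (pnd2 versus gd11). No paired analysis was possible because sample numbers are not shared between stages. Changes of low-signal probe sets are understated by the pseudocount.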
